A study of Mus musculus with 20 samples.

Results

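The interleukin-6 (IL-6) family and STAT genes examined here are 10 genes chosen by name: the ligand *Lif*, the receptors *Il6st*, *Il6ra*, *Osmr* and *Lifr*, the transcription factors *Stat3* and *Stat5a*, and the feedback inhibitors *Socs3*, *Cish* and *Socs2*. All 10 were found among the 24411 genes of the count table. Their levels were read in the kidneys of 20 mice harvested at P125, with 1 library per mouse. The mice carried floxed *Pkd2*, the gene for polycystin-2, and fell into 4 groups of 5: controls and mutants of each sex. Mutants were Cre-positive Pkd2 fl/fl mice with Pax8 rtTA and TetO Cre, in which doxycycline (DOX) induces the deletion. The *Pax8* promoter drives rtTA in the renal tubules, so that other cells of the kidney keep *Pkd2*. Controls were littermates that lacked either Pax8 rtTA or TetO Cre. Every mouse, controls included, was on an inbred C57BL/6 background and received DOX at 50 mg per kg from P27 to P29. They were born in 3 litters, which are named A, B and C.

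Cytokines of the IL-6 family signal through receptors that share the gp130 chain, which *Il6st* encodes. A ligand such as LIF or oncostatin M joins gp130 with a partner chain (LIFR or OSMR), the bound JAK kinases phosphorylate STAT3, and STAT3 dimers enter the nucleus and raise target genes, among them the inhibitor *Socs3*. *Stat5a*, *Cish* and *Socs2* belong to a sister branch that growth hormone, prolactin and other cytokines use. In the injured kidney this pathway is known for its part in the acute-phase response of tubule cells and in inflammation.

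The libraries held 11307741 to 19324073 counts. Levels are given in CPM (counts scaled to a library of 1000000), and mice are named by sex, genotype and a number given here (MM1 is a male mutant, FC1 a female control). The library of FM4 stood apart, with 14850 genes detected against 16776 to 17724 in the others, and 76 genes with a single count against 708 to 859. *Pkd2* was at 250.3 to 332 CPM in male controls and 109.7 to 133 CPM in male mutants. In females it was at 193 to 306 and 94.7 to 182 CPM, where the highest mutant, FM4, lay just under the lowest control. The marker list of the proximal tubule summed to between 7057 and 14118 CPM in every library, with no marker at 0. Bulk counts cannot tell more cells of a type from more RNA per cell.

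A gene was called where edgeR's quasi-likelihood test gave a Benjamini-Hochberg adjusted p under 0.01 over all genes tested. Members were read against the share of all tested genes called in the same comparison. In males, 4 of 10 members were called and all 4 rose in mutants (*Lif*, *Osmr*, *Stat3* and *Socs3*), where 8.46% of all genes were called and 5.25% rose. In females, 0 of 10 were called against 0.637% of all genes, and at an unadjusted p under 0.05 there were 6 members, against 20.6% of all genes. DESeq2's Wald test called 3 members in females (*Lif*, *Osmr* and *Socs3*), and edgeR called the same number without FM4. With both sexes in 1 fit (the joint comparison), 6 of 10 were called against 15.9% of all genes. Of these, *Lif*, *Il6st*, *Osmr*, *Stat3* and *Socs3* rose, against 10% of all genes that rose, and *Lifr* fell, against 5.86%. The median log2 fold change of the members was 0.45, and that of all genes tested was -0.012.

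**Figure D1:**
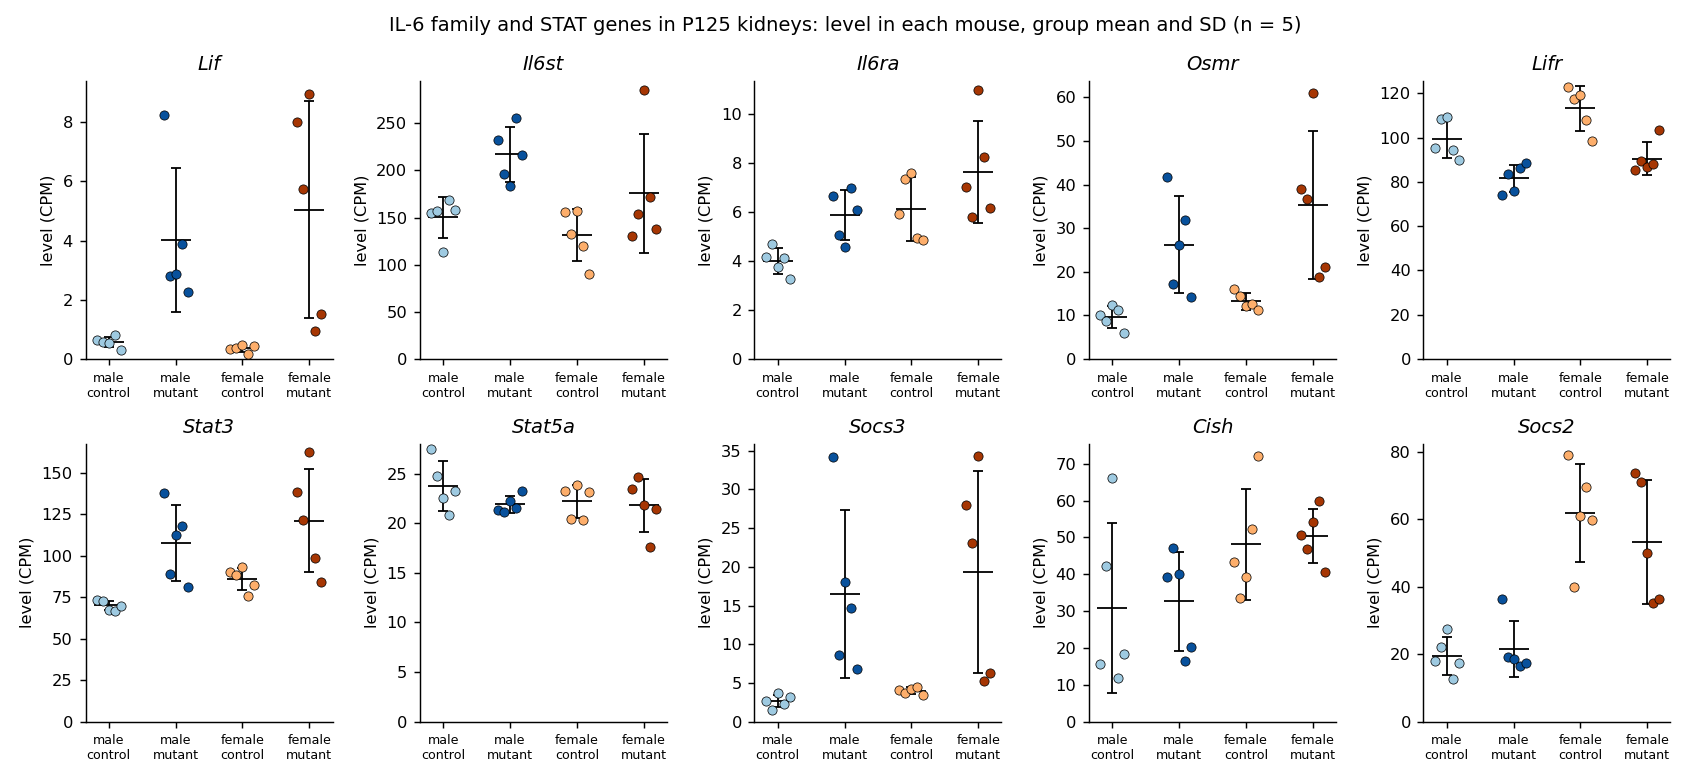
Level in CPM (linear axis from 0) of each of the 10 genes in each mouse (points), with the group mean and SD (bars, n = 5). The points of *Lif* and *Socs3* in mutants of either sex lie above all 10 controls, while those of *Socs2* differ between males and females.

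Promoter sequence is shown for 3 of the genes that rose together, because STAT dimers are known to bind the palindrome TTCNNNGAA (which reads the same on both strands). RefSeq (GRCm38.p6) promoters were matched by symbol for 9 of 10 members, and the 250 bases before each start were searched for this motif alone. It was found once, in *Socs3* (TTCTTAGAA, first base 154 bases before the start), and in the windows of none of the other 8 members searched. Of 32851 promoters of that length, 2306 (7.02%) held it. The stretches below are the parts of each window that no annotated exon covers, 5′ to 3′, with the motif in capitals. They are chr11:117969452-117969616 (minus strand) for *Socs3*, chr11:4257318-4257556 (plus strand) for *Lif* and chr11:100939541-100939790 (minus strand) for *Stat3*. The window of *Socs3* belongs to the RefSeq start and lies inside the span of the GENCODE gene, which begins further upstream. Annotated exon covers the bases of this window nearest the RefSeq start, which are not printed. The windows of *Osmr*, *Lifr*, *Cish* and *Stat5a* also lie inside the spans of their GENCODE genes. For these genes and *Socs3*, the bases before the GENCODE start were not searched. *Socs2* was not in the table.
Socs3: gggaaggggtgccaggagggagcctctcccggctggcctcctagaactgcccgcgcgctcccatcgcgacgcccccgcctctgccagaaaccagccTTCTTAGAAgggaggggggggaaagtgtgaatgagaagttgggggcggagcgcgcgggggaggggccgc
Lif: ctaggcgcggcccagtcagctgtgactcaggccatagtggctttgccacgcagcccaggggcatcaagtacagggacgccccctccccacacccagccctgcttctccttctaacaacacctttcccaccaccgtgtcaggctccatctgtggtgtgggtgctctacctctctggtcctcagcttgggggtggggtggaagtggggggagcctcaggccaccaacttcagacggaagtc
Stat3: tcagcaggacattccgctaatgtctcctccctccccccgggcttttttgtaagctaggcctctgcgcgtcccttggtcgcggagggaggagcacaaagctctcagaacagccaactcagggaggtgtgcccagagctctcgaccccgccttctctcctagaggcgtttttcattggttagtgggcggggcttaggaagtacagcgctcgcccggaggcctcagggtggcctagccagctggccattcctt

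*Lif* (chr11:4257557-4272514, plus strand, GRCm38) encodes leukemia inhibitory factor, which signals through LIFR and gp130. It was scarce in controls, with 3 to 10 counts per library. In males its level was 0.659, 0.572, 0.526, 0.812 and 0.322 CPM in MC1 to MC5 and 8.25, 2.80, 2.88, 3.89 and 2.26 CPM in MM1 to MM5. Female levels were 0.330, 0.382, 0.472, 0.179 and 0.456 CPM in FC1 to FC5 and 8.02, 5.75, 8.96, 0.948 and 1.53 CPM in FM1 to FM5. Mutants and controls did not overlap in either sex, MM1 stood far above the other male mutants, and FM4 and FM5 were the lowest mutants. *Lif* rose 7.23-fold in males (log2 fold change 2.85 ± 0.37 SE, edgeR adjusted p = 7.9e-04). In females the fold was 13.1 (3.71 ± 0.65 SE, edgeR adjusted p = 0.013), which was not called. In the joint comparison *Lif* rose 9.58-fold (3.26 ± 0.39 SE, edgeR adjusted p = 1.4e-05), and it was called in each of the 20 fits that left out 1 mouse.

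Of the other ligands of the family, few had enough counts to be tested. Of 11 ligand genes in the table, 4 passed the filter on low counts in the joint comparison, and 2 rose, *Lif* among them. Of all genes tested, 10% rose. *Il6* itself did not pass the filter: it was at 0 in 7 of 10 controls, with 8 counts over all controls, and at 0 in 1 mutant, with 88 counts over all mutants. The ratio of these sums, each divided by the total counts of its libraries, was 10.5 (exact 95% interval 5.10 to 25.1, counting error only). With no filter edgeR called *Il6* higher in mutants (adjusted p = 0.0042), as did DESeq2 (adjusted p = 0.001). *Il11*, with at most 10 counts in a control and 41 in a mutant, also failed the filter and was also called higher with no filter (1.97 ± 0.52 SE on the log2 scale, edgeR adjusted p = 0.0085) and by DESeq2 (adjusted p = 0.0024). *Osm*, the gene for oncostatin M, had at most 16 counts in any mouse and was called by neither (adjusted p = 0.72 and 0.81).

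*Osmr* (chr15:6813577-6874969, minus strand) encodes the oncostatin M receptor, and it had the largest fold of the 7 receptors of the family tested. Its level was 10.1, 8.70, 12.5, 11.2 and 5.92 CPM in MC1 to MC5 and 41.7, 17.2, 26.1, 31.9 and 14.3 CPM in MM1 to MM5. In females it was 16.0, 14.4, 12.1, 12.6 and 11.2 CPM in FC1 to FC5 and 38.9, 36.8, 61.0, 18.8 and 21.0 CPM in FM1 to FM5. Within each sex every mutant lay above every control, but the lowest male mutant, MM5, lay under the 2 highest female controls. The rise was 2.68-fold in males (log2 fold change 1.42 ± 0.21 SE, edgeR adjusted p = 0.0018). The fold in females was 2.69 (1.43 ± 0.28 SE, edgeR adjusted p = 0.019), not called. Jointly it was 2.66 (1.41 ± 0.18 SE, edgeR adjusted p = 3.0e-05), and the difference had the same sign in each of the 6 sets of mice of 1 sex and litter.

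*Il6st* (chr13:112464070-112510086, plus strand), the gp130 chain that the family's receptors share, had the highest level per length of the members in each group, at 13.5 ± 1.94 CPM per kb of exon (SD, n = 5) in male controls. Its level was 155, 157, 113, 169 and 158 CPM in MC1 to MC5 and 233, 196, 184, 256 and 216 CPM in MM1 to MM5. Among females it was 156, 133, 157, 120.2 and 90.4 CPM in FC1 to FC5 and 131, 154, 285, 172 and 138 CPM in FM1 to FM5. Male mutants lay above male controls without overlap, whereas in females only FM3 and FM4 exceeded every control. The log2 fold change was 0.50 ± 0.12 SE in males (edgeR adjusted p = 0.013) and 0.45 ± 0.20 SE in females (edgeR adjusted p = 0.24), and neither was called. The joint value of 0.47 ± 0.12 SE was called (edgeR adjusted p = 0.0074), but the call was lost in 14 of the 20 fits that left out 1 mouse, with the log2 fold change between 0.36 and 0.55.

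*Il6ra* (chr3:89864059-89913196, minus strand), the chain that binds IL-6 itself, had a low level: 3.28 to 4.70 CPM in male controls, 4.59 to 7.00 in male mutants, 4.86 to 7.60 in female controls and 5.81 to 11.0 in female mutants. The groups of mutants and controls overlapped in both sexes. The joint log2 fold change was 0.44 ± 0.14 SE (edgeR adjusted p = 0.023), not called. An antisense gene, *Gm42809*, overlaps it by 281 bases, and as the strandedness of the libraries was not given, reads of the pair cannot be told apart.

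*Lifr* (chr15:7090614-7197489, plus strand), the LIF receptor chain, went the other way from its ligand. In males its level was 95.5, 109, 109, 94.4 and 89.8 CPM in MC1 to MC5 and 74.3, 83.4, 76.0, 86.2 and 88.3 CPM in MM1 to MM5. In females it was 123, 118, 119, 108 and 98.3 CPM in FC1 to FC5 and 85.2, 89.2, 86.6, 88.3 and 103 CPM in FM1 to FM5. Each male mutant lay under each male control, although MM5 and MC5 were close, and FM5 was the one female mutant within the female controls. *Lifr* fell to 0.816 of the control level jointly (log2 fold change -0.29 ± 0.062 SE, edgeR adjusted p = 0.0019). The values within a sex, -0.28 ± 0.08 SE in males and -0.30 ± 0.096 SE in females, were not called (edgeR adjusted p = 0.03 and 0.10). In litter C females the difference was 0.073 on the log2 scale, above 0, and it was below 0 in the 5 other sets of 1 sex and litter.

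The list of IL-6 family receptors holds 8 genes, of which 7 were tested jointly, 3 rose and 2 fell. Of all genes tested, 10% rose and 5.86% fell. Beside the members, *Il27ra*, the receptor of IL-27, rose (1.08 ± 0.21 SE on the log2 scale, edgeR adjusted p = 0.0011). *Cntfr*, the ciliary neurotrophic factor receptor, fell (-0.84 ± 0.20 SE, edgeR adjusted p = 0.0038). Its mean was 5.85 CPM in male controls, 2.65 in male mutants, 7.61 in female controls and 5.21 in female mutants. The fits that left out 1 mouse gave between 3 and 6 calls on this list.

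**Figure D2:**
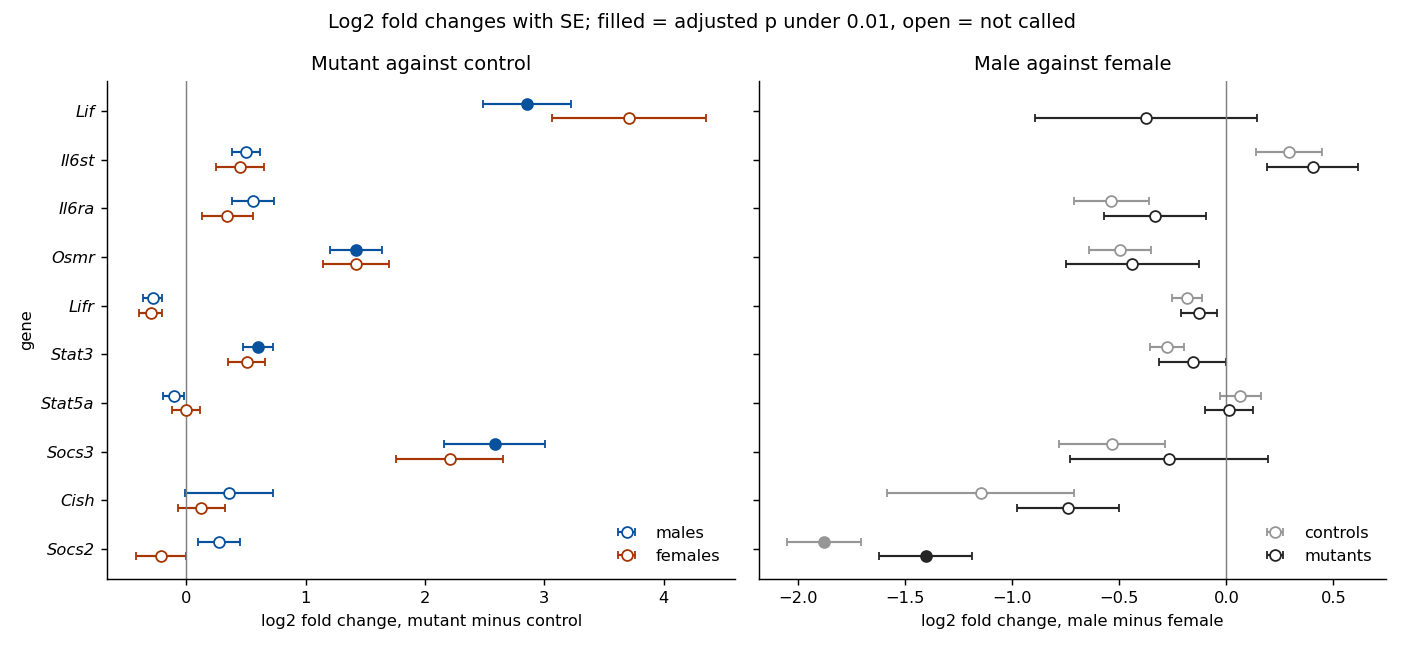
Log2 fold change with SE (bars) of each gene, from edgeR, for mutant against control in each sex (left) and male against female in each genotype (right). Filled points were called at an adjusted p under 0.01 and open points were not. *Lif* was not tested between male and female controls. *Socs2* is the one gene called in the right panel.

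*Stat3* (chr11:100885098-100939540, minus strand), the main transcription factor of the pathway, changed by a smaller fold than *Socs3* or *Lif*. Its level was 73.5, 72.6, 67.4, 66.9 and 70.0 CPM in MC1 to MC5 and 138, 89.0, 113, 118 and 81.2 CPM in MM1 to MM5. The female values were 90.2, 88.3, 93.1, 76.0 and 82.2 CPM in FC1 to FC5 and 138, 121, 163, 98.7 and 84.4 CPM in FM1 to FM5. Male controls lay close together and under every male mutant, and FM5 was the one female mutant within the female controls. The rise was 1.52-fold in males (log2 fold change 0.60 ± 0.12 SE, edgeR adjusted p = 0.0068), a call that was lost in 6 of the 10 fits that left out 1 male, where the log2 fold change was 0.54 to 0.61. In females the fold was 1.42 (0.51 ± 0.16 SE, edgeR adjusted p = 0.093), not called. Jointly *Stat3* rose 1.46-fold (0.54 ± 0.10 SE, edgeR adjusted p = 6.4e-04).

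*Stat5a* (chr11:100859351-100885169, plus strand), the neighbour of *Stat3* on the chromosome and the STAT of the growth hormone and prolactin branch, was at 20.9 to 27.5 CPM in male controls and 21.1 to 23.2 in male mutants. In females it was at 20.4 to 23.9 CPM in controls and 17.6 to 24.6 in mutants. The joint log2 fold change was -0.056 ± 0.07 SE (edgeR adjusted p = 0.60), and the groups overlapped in both sexes. The 3′ ends of *Stat3* and *Stat5a* overlap by 72 bases on opposite strands, and *Stat5a* has a near-identical neighbour, *Stat5b*, so that the counting could split some reads. Of the 4 JAK kinases, *Jak3*, a kinase of lymphoid and myeloid cells, rose (0.39 ± 0.095 SE, edgeR adjusted p = 0.0055). That call was absent from the fits without FC1, FC2, FC4, FC5, FM1, FM3, FM5, MC1, MC4 or MM1. The fits that left out 1 mouse gave between 0 and 2 calls on the list.

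*Socs3* (chr11:117966079-117970047, minus strand), the feedback inhibitor that binds gp130 and the JAK kinases, was one of the 2 members whose mutants lay above all 10 controls, together with *Lif*. Of all genes tested, 0.979% showed this pattern. The level of *Socs3* was 2.71, 1.52, 3.68, 2.35 and 3.15 CPM in MC1 to MC5 and 34.1, 8.68, 18.1, 14.7 and 6.83 CPM in MM1 to MM5. In females it was 4.15, 3.71, 4.24, 4.47 and 3.42 CPM in FC1 to FC5 and 28.0, 23.1, 34.3, 5.26 and 6.29 CPM in FM1 to FM5. MM1 and FM3 were the highest of their groups, and FM4 and FM5 lay close above the controls. *Socs3* rose 5.99-fold in males (log2 fold change 2.58 ± 0.42 SE, edgeR adjusted p = 0.0024). Without MM1 the log2 fold change in males was 1.88. Without MC4 it was 2.52, but the call was lost (edgeR adjusted p = 0.017). So were those of *Osmr* (1.44 on the log2 scale, edgeR adjusted p = 0.013) and *Stat3* (0.54, edgeR adjusted p = 0.046), which left *Lif* as the 1 member called in males. The fold in females was 4.62 (2.21 ± 0.45 SE, edgeR adjusted p = 0.022), not called. Jointly *Socs3* rose 5.17-fold (2.37 ± 0.33 SE, edgeR adjusted p = 5.8e-05).

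Of 8 SOCS genes tested jointly, *Socs3* rose and *Socs5* fell (-0.23 ± 0.059 SE on the log2 scale, edgeR adjusted p = 0.0062). The call of *Socs5* was lost in 12 of the 20 fits that left out 1 mouse, and its log2 fold change over all 20 was -0.26 to -0.20. *Cish* and *Socs2*, inhibitors known as STAT5 targets, were not called in any comparison of mutants with controls. *Cish* (chr9:107296026-107302784, plus strand) was variable among controls, at 15.7, 42.4, 66.0, 11.9 and 18.4 CPM in MC1 to MC5. It was at 16.4 to 47.2 CPM in male mutants, 33.6 to 72.2 in female controls and 40.7 to 59.9 in female mutants, and all groups overlapped. Its joint log2 fold change was 0.23 ± 0.23 SE (edgeR adjusted p = 0.50). The annotated genes *Gm17040* and *Gm17041* overlap *Cish* on the opposite strand by 1167 and 1459 bases. Of 9 other JAK-STAT inhibitors, *Ptprc*, a phosphatase of blood cells known as CD45, rose (0.85 ± 0.16 SE, edgeR adjusted p = 9.0e-04).

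Genes listed as known STAT3 targets were compared next. The list was chosen with earlier results of these data known. Of 30 genes, 25 were tested jointly, 14 rose and *Vegfa*, a vascular growth factor, fell. Of all genes tested, 10% rose and 5.86% fell. In males alone 15 rose and 1 fell, where 8.46% of all genes were called and 5.25% rose. In females 2 rose, where 0.637% of all genes were called. No gene was called by a test of whether the change with genotype differed between the sexes. Jointly, the median log2 fold change of the targets was 0.98, against -0.012 over all genes. The highest values belonged to *Timp1*, an inhibitor of metalloproteinases (5.28 ± 0.49 SE), and *Lcn2*, a marker of tubule injury (4.60 ± 0.52 SE). *Timp1* averaged 0.279 CPM in male controls, 8.76 in male mutants, 0.269 in female controls and 13.1 in female mutants. They were followed by the chemokine *Ccl2* (3.27 ± 0.39 SE), the mitotic gene *Birc5* (1.91 ± 0.26 SE), osteopontin or *Spp1* (1.77 ± 0.27 SE) and *Myc* (1.57 ± 0.23 SE), with edgeR adjusted p-values from 1.9e-06 to 1.3e-04. The acute-phase genes *Saa1* and *Saa2* were listed at 0 in every control and had at most 13 counts in a mutant. Without FM4 the count of called targets went from 15 to 19, and the lowest count without 1 mouse was 13.

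**Figure D3:**
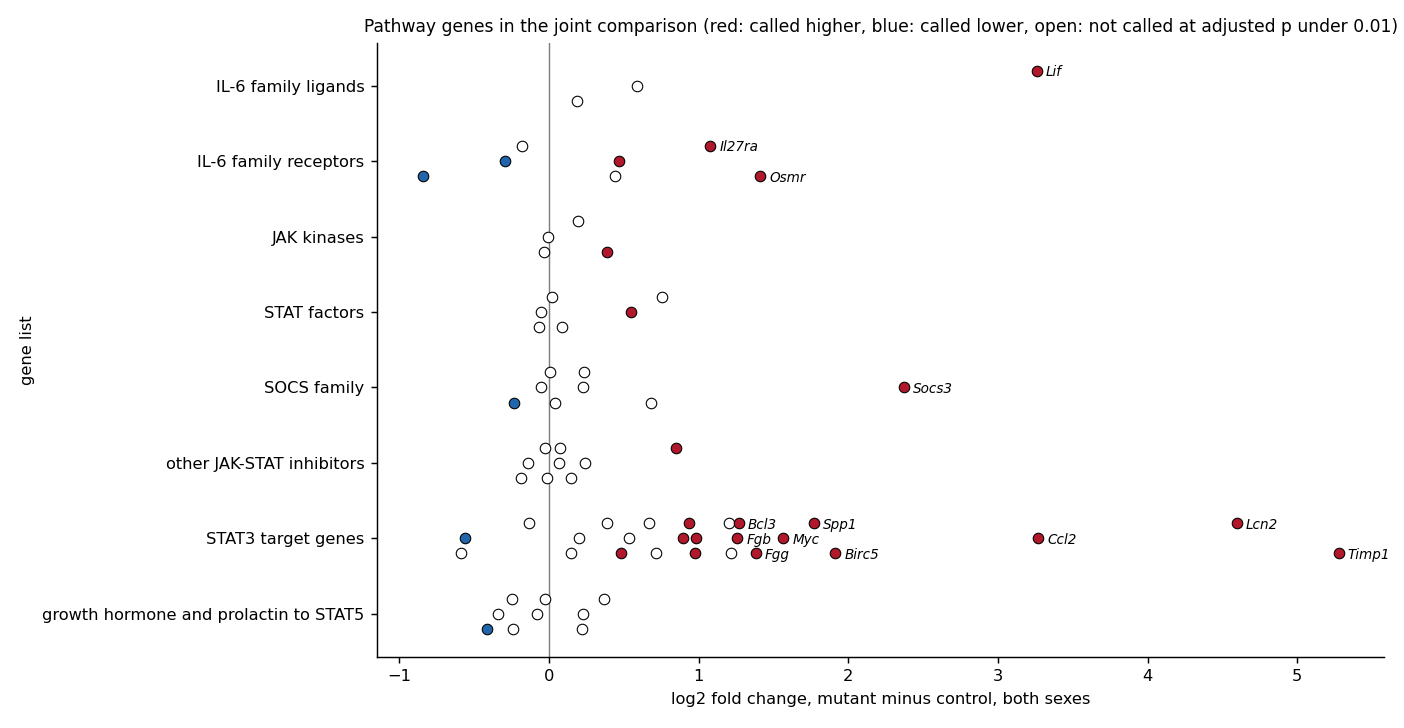
Log2 fold change of the tested genes of 8 pathway lists in the joint comparison (2 genes are not shown), with genes called higher in red, called lower in blue and not called as empty points. Names are given for called genes beyond 1 on the log2 scale. *Lif* and *Socs3* stand apart within their lists, and the called STAT3 targets reach from *Vegfa* at -0.56 to *Timp1* at 5.28.

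Markers of other cell types moved with these genes. In the joint comparison 10% of all genes rose and 5.86% fell. All 8 macrophage markers rose jointly, and their summed level was 126 to 157 CPM in male controls, 232 to 670.2 in male mutants, 160.4 to 203 in female controls and 179 to 925 in female mutants. Of 8 fibroblast and myofibroblast markers, 5 rose, with sums of 234 to 304, 411 to 1187, 329 to 499 and 484 to 1579 CPM in the same order. All 7 markers of injured tubule rose, 1 of which (*Lcn2*) is also among the STAT3 targets, with sums of 139 to 158, 242 to 945, 133 to 168 and 212 to 745 CPM. FM4 had the lowest sum of the female mutants on each of these 3 lists. No marker of macrophages, fibroblasts or injured tubule was at 0 in any group. Of the neutrophil markers 2 of 5 were tested and of the T cell markers 5 of 5, and none was called. The neutrophil sums were at most 4.24 CPM, and *Mpo* was the 1 neutrophil marker at 0 in every group. Some markers of other tubule segments were called lower in mutants, and none was called higher. Of 6 markers of the loop of Henle and distal tubule 5 fell, with sums of 6708 to 7177, 4524 to 5312, 9200.0 to 10284 and 4928 to 6864 CPM in the order above. Of 6 collecting duct markers 4 fell, with sums of 410.0 to 636, 363 to 439, 576 to 837 and 361 to 744 CPM, and of 8 proximal tubule markers 1 fell. No endothelial marker of 6 was called. Of 5 adipocyte markers 2 were tested and none was called. Their sum was highest in FM3, at 369.5 CPM, where no mouse of another group passed 161.7 CPM. The part of these cell types in the changes of *Lif*, *Osmr*, *Stat3* and *Socs3*, and in the falls of *Lifr*, *Cntfr*, *Ghr* and *Vegfa*, was not tested.

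The genes whose log2 CPM ran most like a member over the 20 libraries were found among 13781 genes of at least 1 CPM on average. For *Stat3* they were *Ptgfrn*, *Tnfrsf1b* and *Laptm5* (Pearson's r = 0.971, 0.971 and 0.970). For *Socs3* they were *Tlr2*, *Bcl2a1b* and *Aoc1* (0.978, 0.976 and 0.976). For *Osmr* they were *Vcam1*, *Casp12* and *Cd68* (0.974, 0.973 and 0.971), of which *Vcam1* is on the injured tubule list and *Cd68* on the macrophage list. *Socs2* ran most like *Misp*, *Sh2d4a* and *Cdc42ep5* (0.936, 0.922 and 0.918), and *Cish* like *Rtn4r*, *1110007C09Rik* and *Klf16* (0.808, 0.785 and 0.782). These values describe libraries that share genotype, sex and litter, and carry no test.

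Sex was examined next, by comparing males with females within each genotype. Among controls, 1 of 9 members tested was called, *Socs2*, which was lower in males. Of all genes, 17.8% were called and 9.02% were lower in males. Among mutants *Socs2* was again the 1 member of 10 called, against 5.42% of all genes called and 1.84% lower in males.

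*Socs2* (chr10:95385362-95417180, minus strand) encodes an inhibitor of growth hormone receptor signaling. Its level was 18.1, 22.2, 27.5, 12.6 and 17.4 CPM in MC1 to MC5 and 79.0, 39.9, 60.9, 69.6 and 59.7 CPM in FC1 to FC5. In mutants it was 36.4, 19.1, 18.6, 16.4 and 17.3 CPM in MM1 to MM5 and 73.7, 71.0, 49.8, 35.1 and 36.4 CPM in FM1 to FM5. No male control reached the lowest female control, and among mutants MM1 alone passed the lowest female, FM4. The log2 difference, male minus female, was -1.88 ± 0.17 SE in controls (edgeR adjusted p = 8.3e-06). In mutants it was -1.40 ± 0.22 SE (edgeR adjusted p = 0.0025), a call that was lost in 5 of the 10 fits that left out 1 mutant (without FM1, FM5, MM3, MM4 or MM5, with log2 differences of -1.50 to -1.36 and adjusted p of 0.010 to 0.02). Males lay lower in each of the 3 litters in both genotypes, with log2 differences of -2.13 to -1.07. *Socs2* did not separate mutants from controls, with log2 fold changes of 0.28 ± 0.18 SE in males and -0.21 ± 0.21 SE in females (edgeR adjusted p = 0.31 and 0.65).

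No other member passed the threshold between the sexes. In controls the log2 difference, male minus female, was -0.28 ± 0.079 SE for *Stat3*, -0.50 ± 0.14 SE for *Osmr*, -0.54 ± 0.17 SE for *Il6ra* and -1.15 ± 0.44 SE for *Cish* (edgeR adjusted p = 0.019, 0.021, 0.036 and 0.067). *Il6st* had the opposite sign (0.29 ± 0.15 SE, edgeR adjusted p = 0.18). Of all genes, 9.02% were lower in control males. The endothelial markers were lower in control males in 6 of 6 cases, with sums of 252 to 312 CPM in males and 353 to 442 in females. In mutants 0 of 6 were called, with sums of 279.6 to 375 and 289.5 to 396 CPM. Of 6 markers of the loop of Henle and distal tubule, 5 were lower in control males, and the sums given above for the sexes of the controls did not overlap. Also lower in control males were 3 of 8 macrophage, 2 of 8 fibroblast and 1 of 6 collecting duct markers, while 2 of 8 proximal tubule markers were higher. Of 6 injured tubule markers tested there, 1 was higher and 1 lower. Between the mutant sexes 1 proximal tubule marker was called, higher in males, and no other marker of these lists. The part of these cell types in the sex differences was not tested.

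Genes of the growth hormone and prolactin branch showed where *Socs2* stood among its neighbours in the pathway. Of 9 genes on the list, 3 were lower in males among controls, where 9.02% of all genes were lower. Among mutants 2 were lower in males, against 1.84% of all genes. *Prlr*, the prolactin receptor, averaged 28.1 CPM in male controls and 385 in female controls (-3.91 ± 0.21 SE on the log2 scale, edgeR adjusted p = 6.1e-08). In mutants it averaged 27.6 and 241 CPM (-3.20 ± 0.35 SE, edgeR adjusted p = 2.6e-04). *Igfals*, which encodes a subunit that carries insulin-like growth factors in blood, averaged 10.3 and 38.2 CPM in controls (-1.97 ± 0.18 SE, edgeR adjusted p = 8.5e-06) and 9.28 and 29.2 CPM in mutants (-1.66 ± 0.23 SE, edgeR adjusted p = 0.0011). *Igfbp3*, which encodes an IGF-binding protein, was lower in control males (-0.42 ± 0.072 SE, edgeR adjusted p = 9.6e-04). *Ghr*, the growth hormone receptor, was the 1 gene of the list called between genotypes, and it fell in mutants (-0.41 ± 0.09 SE jointly, edgeR adjusted p = 0.0022).

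Whether the change with genotype differed between males and females was tested with a sex-by-genotype term. None of 10 members was called by edgeR, and none of the 14820 genes tested was called (0%). No member had an unadjusted p under 0.05, against 4.17% of all genes (range 0.10 to 0.94), and DESeq2 called 0 members. The lowest belonged to *Socs2*, whose change in males exceeded that in females by 0.52 ± 0.30 SE on the log2 scale. For *Lif* the term was -0.85 ± 0.79 SE and for *Socs3* 0.40 ± 0.67 SE. *Stat3* and *Osmr* gave 0.13 ± 0.20 and 0.029 ± 0.37 SE.

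Finally, levels were set against kidney weight (the weight of 1 kidney as a percentage of body weight, KBW), which was 1.22% to 2.15% in the 5 male mutants and 0.836% to 1.46% in the 5 female mutants. Pearson's r was taken over the 10 mutants for 14820 genes, with 100000 permutations. No member was called, and neither was any other gene (0%). At an unadjusted p under 0.05 there was 1 member, *Lifr*, against 15.1% of all genes. Its r was -0.75 (permutation p = 0.015, adjusted p = 0.21). Spearman's rho was -0.58 (permutation p = 0.088, adjusted p = 0.47), and r was -0.73 without FM4 and MM1, the mutants farthest from the median KBW.

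For *Socs3* r was 0.58 (permutation p = 0.081, adjusted p = 0.39) and rho 0.55 (permutation p = 0.10, adjusted p = 0.49). For *Lif* r was 0.56 (permutation p = 0.091, adjusted p = 0.41) and rho 0.53 (permutation p = 0.12, adjusted p = 0.51). Without FM4 and MM1, the mutants at the ends of the KBW range, these values of r went to 0.20 and 0.10. Leaving them out also narrowed the range of KBW. Without 1 mutant at a time r was 0.43 to 0.74 for *Socs3* and 0.35 to 0.65 for *Lif*. *Stat3* and *Osmr* gave r = 0.37 and 0.31 and rho = 0.27 and 0.33 (permutation p of 0.30 to 0.45, adjusted p of 0.63 to 0.76), and r = 0.16 and -0.021 without FM4 and MM1. *Cish* gave r = -0.42 and rho = -0.66 (permutation p = 0.23 and 0.044, adjusted p = 0.58 and 0.38), and r = -0.45 without FM4 and MM1.

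KBW ran higher in male than in female mutants, with overlap, so the relation was computed again with level and KBW centred within each sex, by an exact permutation test within sex. Then 5 of 10 members had a positive r with an unadjusted p under 0.05, against 12.6% of all genes. They were *Socs3* (r = 0.83, exact p = 0.0069), *Lif* (r = 0.78, exact p = 0.0088), *Osmr* (r = 0.76, exact p = 0.018), *Stat3* (r = 0.75, exact p = 0.021) and *Socs2* (r = 0.72, exact p = 0.041). None passed the adjustment over all genes, where the lowest adjusted p of a member was 0.12. Before centring the r of *Socs2* was -0.27 (rho = -0.33, permutation p = 0.45 and 0.35, adjusted p = 0.75 and 0.70), and the range of female mutants lay lower in KBW and higher in *Socs2*, with overlap in both. Within a sex *Lifr* gave r = -0.58 and *Cish* r = 0.022 (exact p = 0.12 and 0.96).

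**Figure D4:**
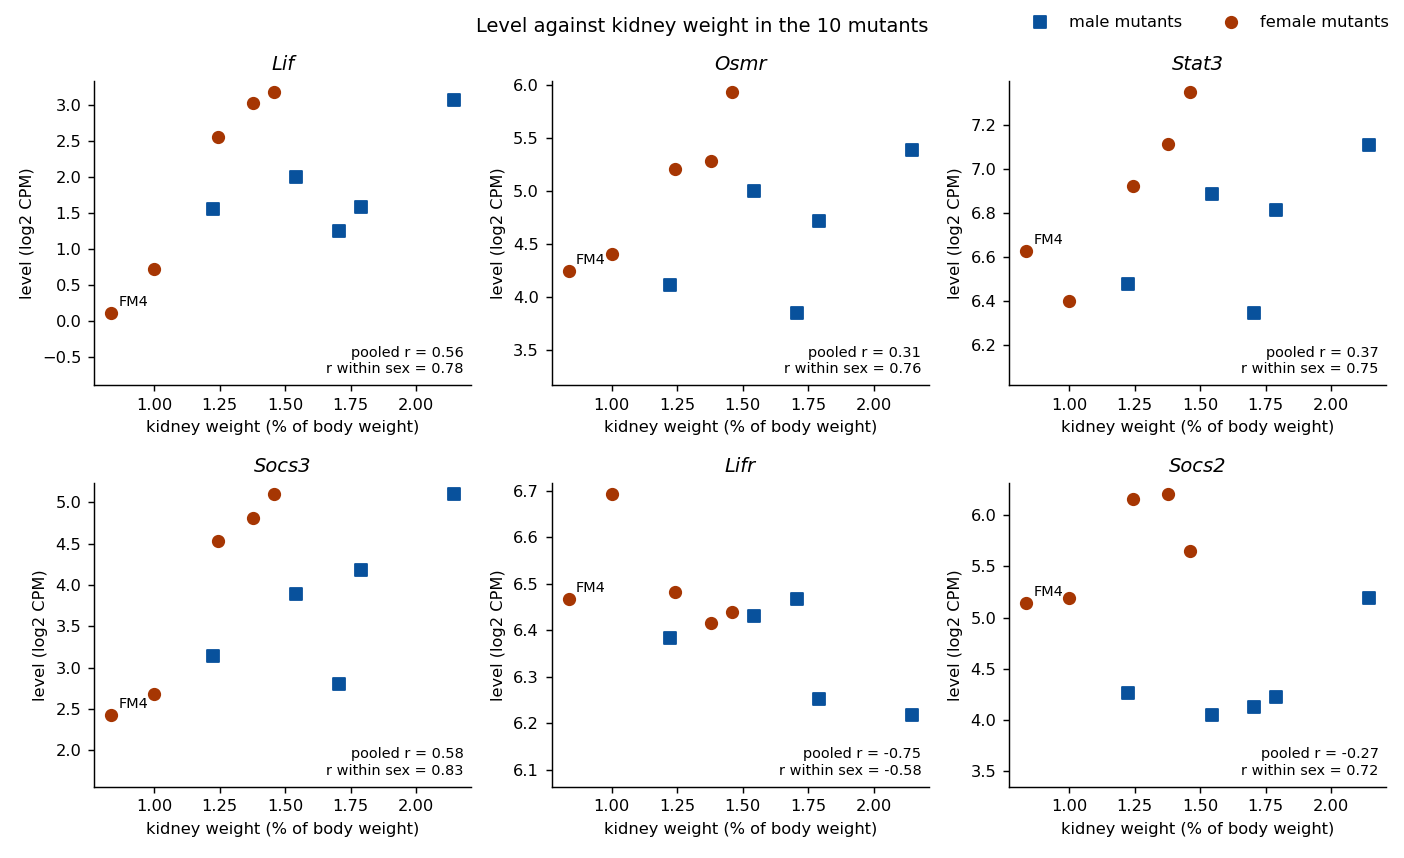
Level in log2 CPM against kidney weight as a percentage of body weight in the 10 mutants, for 6 genes, with male mutants as squares and female mutants as circles. Each panel gives r over all mutants and r after centring within sex. In *Lif* and *Socs3* the 3 females with the larger kidneys stand above the other 2, and MM1, at 2.15%, is the highest male.

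Chosen after seeing the data, the same within-sex measure without FM4 gave within-sex values of 0.78 for *Socs3*, 0.72 for *Stat3*, 0.71 for *Lif*, 0.70 for *Osmr* and 0.66 for *Socs2*. Without both FM4 and MM1 they were 0.66, 0.63, 0.55, 0.56 and 0.31, in the same order, with exact p-values from 0.09 to 0.50. As a slope in edgeR with sex as a covariate, *Socs3* rose by 2.91 ± 0.57 (SE) on the log2 scale per percentage point of KBW (edgeR adjusted p = 0.034), which was not called. Litters A, B and C held 3, 5 and 2 mutants. Litter did not enter any of the KBW tests, and the relation was not computed within litters.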

How the data were processed

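RNA was sequenced from 1 kidney library per mouse in 20 mice (5 in each of 4 groups), at P125. Per the authors' processing notes, fastp 0.23.2 did the trimming and STAR 2.7.10b the alignment, to mm10, and raw counts per gene symbol were deposited. The counting tool, annotation and strandedness are not given in the sources used here. Positions are from GENCODE VM21 (GRCm38, the same assembly as mm10).

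Groups, weights and litters came from the labels, and KBW was kidney weight divided by body weight. Counts were tested in R 4.3.3 with edgeR 4.0.16 (TMM, filterByExpr, quasi-likelihood test), which uses limma 3.58.1, with litter as a covariate, or the 6 sex-by-litter sets where both sexes entered. The Benjamini-Hochberg adjustment ran over all genes tested, and genes were called at an adjusted p under 0.01. DESeq2 1.42.0 was an alternative, and the KBW slope in edgeR had sex in place of litter as its covariate. Levels are CPM from TMM, in log2 with a prior count of 2 for KBW and for likeness. KBW was tested two-sided with 100000 permutations or, within sex, all 14400, in Python 3.11.15 with numpy 2.4.6, and figures were drawn with matplotlib 3.10.9. The fits were tested on simulated data. Alternatives were other scalings, filters, covariates, fits and leaving out each mouse.

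The 10 genes and all lists were chosen with earlier results of these data known. Of other genes on the pathway lists, at most the 6 of largest absolute log2 fold change among those called were named per list and comparison, and any ligand or receptor of the family could be. For 5 members, the 3 genes of highest Pearson's r among genes averaging at least 1 CPM were named. *Vegfa*, *Saa1* and *Saa2* were named after their values were seen. The results of 2 genes on the pathway lists are not reported here.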

Additional observations from a re-analysis of the deposited data

Results flagged for a closer look

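Of 44 sets of 5 mice examined (each of the 10 genes and *Pkd2* in each of 4 groups), 5 held a mouse whose gap to its nearest neighbour took up more of the range than Dixon's 95% limit of 0.71 for 5 samples. Chance marks about 1 in 20 sets.

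*Il6st* stood out in a pair of groups. Among male controls MC3 was lowest, at 113 CPM, with the next at 155 CPM. Among female mutants FM3 was highest, at 285 CPM, with the next at 172 CPM. FM3 was also the highest female mutant for *Lif*, *Osmr*, *Stat3*, *Socs3* and *Il6ra*. It had the highest summed level of adipocyte markers as well, at 369.5 CPM, and the part of fat tissue in its levels was not tested.

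MM1, the male mutant with the highest KBW, was highest for *Lif*, at 8.25 CPM with the next at 3.89 CPM. It was also highest for *Socs2*, at 36.4 CPM with the next male mutant at 19.1 CPM. For *Lifr*, FM5 was the highest female mutant, at 103 CPM with the next at 89.2 CPM.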

How the results depend on the processing

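Of 1251 values recomputed under alternatives, 1135 kept their direction and side of the threshold (for counts, stayed within 1.5 times). In females the count of members called, 0 in the report, was 3 by DESeq2's Wald test, 3 with all 20 mice in 1 fit, 2 with no filter and 1 with no litter term. Leaving out 1 mouse gave 1 to 4 members in males (1 without MC4), 0 to 3 in females (3 without FM4), 5 to 7 jointly, 1 to 2 between control sexes (2 without FC4 or MC3), 0 to 1 between mutant sexes, and 0 for the sex-by-genotype term and for KBW. *Il6st* was also called in males by DESeq2, with no filter and with no litter term. The cause was not tested.

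Signs turned only in values that were not called. For *Stat5a* in females the log2 fold change was -0.0028 (DESeq2 Wald), -0.0015 (DESeq2 size factors), -0.024 (all 20 mice), -0.0015 (at least 10 counts), -0.023 (no filter) and -0.063 to 0.064 without 1 mouse. Between mutant sexes it was -0.013 (all 20 mice), -0.0020 (at least 10 counts) and -0.038 to 0.061 without 1 mouse. For *Socs2* jointly it was -0.00039 (no filter), -0.039 (no litter term) and -0.11 to 0.091 without 1 mouse. For KBW, the r of *Il6ra* became 0.29 within sex, 0.43 also without FM4, 0.37 also without FM4 and MM1, and its edgeR slope was 0.33. Those of *Socs2* were 0.72, 0.66, 0.31 and 1.17. *Cish* gave 0.022 within sex and 0.13 also without FM4, *Osmr* -0.021 without FM4 and MM1, and *Stat5a* -0.12 to 0.58 without 1 mutant.

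The list of IL-6 family ligands had 2 calls jointly, 4 by DESeq2 or with no filter, and 0 with at least 10 counts in every library, which removes *Lif*. No paired analysis was possible because the labels give no replicate numbers that tie mice across groups. Litter was a covariate in its place. Depth limits the ligands: *Il6* had at most 3 counts in a control.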

Other observations

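Between the sexes of the controls, 3 of 23 STAT3 target genes tested were lower in males, where 9.02% of all genes were lower. They were *Fgb*, a fibrinogen chain (-1.55 ± 0.18 SE on the log2 scale, edgeR adjusted p = 6.1e-05), *Cebpd*, a transcription factor of the acute-phase response (-1.50 ± 0.35 SE, edgeR adjusted p = 0.0067), and *Spp1* (-1.12 ± 0.096 SE, edgeR adjusted p = 4.4e-06). None of the 25 targets tested was called between male and female mutants, where 1.84% of all genes were lower in males.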
